A study of Mus musculus with 24 samples.

Results

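Neutrophil granule genes encode the proteins that a maturing neutrophil stores in its granules or holds in its cytosol. Here they are 10 mouse genes, taken by symbol from a table of read counts for 55487 genes, and all 10 were found. The early set holds 4 genes of the primary (azurophil) granules, Mpo, Elane, Prtn3 and Ctsg. The late set holds 6 genes of later granules or the cytosol, Ltf, Camp, Ngp, Lcn2, S100a8 and S100a9. RNA was sequenced in bulk from 24 samples of mouse LSK cells, a fraction of Lineage-negative cells with surface Sca-1 and KIT that is enriched in blood stem and early progenitor cells. The samples formed 6 groups of 4 libraries. Wild-type (WT) cells were taken on postnatal day 0 (P0) from liver and on day 28 (P28) from bone marrow. Cells of a Tet-off mouse carrying human MLL::ENL (ME), a leukemia fusion gene, came from the P0 liver after induction at E10.5, an embryonic day, and from the P28 marrow after induction at E10.5 or at P0. The last group, labelled P28 ME RLT Vav Txp, also came from the P28 marrow with induction at E10.5, and the labels do not expand its name. Strain, sex and the promoter that drives the transactivator are not given in the sources used here. The design text calls the sorted cells lineage-negative KIT-positive progenitors, whereas the labels call them LSK, and it counts the 4 samples of a group as biological replicates. All P0 cells came from liver and all P28 cells from marrow, so age and tissue cannot be told apart.

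Neutrophils fill their granules in a fixed order as they mature. Myeloblasts and promyelocytes make the primary granules with myeloperoxidase and the serine proteases, myelocytes and metamyelocytes then make the secondary granules with lactoferrin and cathelicidin, and the calcium-binding S100A8 and S100A9 proteins accumulate in the cytosol of the later stages. The transcription factors PU.1 and C/EBPα act at the early step and C/EBPε at the late step. Stem cells hold little of any of these transcripts, while Mpo and Elane are already transcribed in early granulocyte and monocyte progenitors. Ly6g, a surface protein of mature neutrophils, is commonly in the antibody mix used to deplete mature cells before such a sort, and the mix used here is not given in the sources used here.

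Promoters of 4 members are shown because the sets differed in the short motifs they held. Each run is the 300 bases from 250 before to 50 after the RefSeq start site (GRCm38.p6), 5′ to 3′ on the gene's strand. Capitals mark the PU.1-type motif GAGGAA or the C/EBP-type motif TTNNGCAA, read on either strand. The windows are chr10:79879417-79879716 (+) for Prtn3, chr10:79886062-79886361 (+) for Elane, chr9:110419558-110419857 (+) for Ngp and chr2:32387690-32387989 (-) for Lcn2.
Prtn3: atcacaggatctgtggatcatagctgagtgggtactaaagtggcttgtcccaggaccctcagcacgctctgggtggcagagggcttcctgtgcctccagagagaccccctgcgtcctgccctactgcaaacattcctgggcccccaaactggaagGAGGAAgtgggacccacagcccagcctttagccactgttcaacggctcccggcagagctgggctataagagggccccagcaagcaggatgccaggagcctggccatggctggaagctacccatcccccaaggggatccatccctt
Elane: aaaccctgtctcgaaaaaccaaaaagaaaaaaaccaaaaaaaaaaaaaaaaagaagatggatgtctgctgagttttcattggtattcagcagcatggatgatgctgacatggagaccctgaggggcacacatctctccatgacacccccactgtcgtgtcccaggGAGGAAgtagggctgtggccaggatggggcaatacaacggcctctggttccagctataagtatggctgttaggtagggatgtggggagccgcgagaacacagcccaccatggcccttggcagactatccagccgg
Ngp: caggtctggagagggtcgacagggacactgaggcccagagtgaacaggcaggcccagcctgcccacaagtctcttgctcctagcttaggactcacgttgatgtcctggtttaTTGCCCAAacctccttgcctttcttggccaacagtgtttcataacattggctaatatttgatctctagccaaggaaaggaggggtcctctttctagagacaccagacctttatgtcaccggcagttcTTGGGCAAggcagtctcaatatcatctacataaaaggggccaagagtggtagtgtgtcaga
Lcn2: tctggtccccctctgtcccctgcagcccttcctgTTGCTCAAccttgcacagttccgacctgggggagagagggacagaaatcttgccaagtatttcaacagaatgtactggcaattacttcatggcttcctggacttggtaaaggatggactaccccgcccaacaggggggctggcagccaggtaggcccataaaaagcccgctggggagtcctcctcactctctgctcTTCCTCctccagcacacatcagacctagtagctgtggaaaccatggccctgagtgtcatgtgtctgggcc
The PU.1-type motif was in 4 of 4 early promoters and in 3 of 6 late ones (Ltf, Lcn2 and S100a8), against 28.3% of 32851 mouse promoters of the same length. The C/EBP-type motif was in 0 of 4 early promoters and in 4 of 6 late ones (Ltf, Ngp, Lcn2 and S100a9), against 10.8% of all promoters. Ngp held 2 copies of it and no PU.1-type motif. Of the motifs searched but not marked, a looser C/EBP-type, TTNNGNAA, was in 0 of 4 early and 5 of 6 late promoters (40.7% of all). The letters ATAAA also differed between the sets, in 1 of 4 early (Ctsg) and 6 of 6 late promoters (40.0% of all). The CHOP-type motif TTGCNNCA did not separate the sets. It was in 2 of 4 early promoters (Mpo and Elane) and 3 of 6 late ones (Camp, S100a8 and S100a9), against 11.4% of all. The 2 marked motifs do not overlap each other in any of the 4 runs shown. They were picked from 10 motifs searched, after the matches were seen. A match describes letters in the window and is no evidence of binding.

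On GRCm38 with the GENCODE M21 annotation, Prtn3 (chr10:79874476-79883174) and Elane (chr10:79886247-79888215) lie 3072 bases apart on the plus strand of chromosome 10. S100a8 (chr3:90668978-90670035, plus strand) and S100a9 (chr3:90692632-90695721, minus strand) are 22596 bases apart on chromosome 3. Camp (chr9:109847379-109849617, minus strand), Ngp (chr9:110419747-110423012, plus strand) and Ltf (chr9:111019271-111042767, plus strand) share chromosome 9, with gaps of 570129 and 596258 bases. Mpo (chr11:87793581-87804413, plus strand), Ctsg (chr14:56099881-56102574, minus strand) and Lcn2 (chr2:32384633-32388252, minus strand) stand alone. The RefSeq start of Prtn3 lies 5191 bases inside the GENCODE gene, whose first 159 bases overlap Plppr3 on the other strand. Mpo contains the antisense model Gm11505, which had 0 to 50 counts in any library. The strand setting of the counting is not given in the sources used here, so reads from those overlaps cannot be assigned with certainty.

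Library depth ran from 31233688 to 89774511 counts, and the 10 granule genes took between 0.0701% and 3.71% of them. Levels are given as CPM, the counts scaled to a common library total after TMM normalisation. Kit was present in all 24 libraries, at 780 ± 536 CPM in WT at P0 and 688 ± 72.1 CPM in WT at P28 (SD, n = 4). Ly6a, the gene of Sca-1, was at 139 ± 61.6 and 296 ± 30.6 CPM in these groups. Ly6g stayed at or below 9.40 CPM in every library. Itgam, another mature myeloid surface gene, lay between 6.46 and 39.0 CPM over the 24 libraries. Both P0 libraries numbered 1, WT and ME, stood apart from the other 6 P0 libraries. Their summed macrophage markers were 129 and 121 CPM against 1250 to 1822 CPM in the other P0 libraries, and their erythroid markers 657 and 269 CPM against 5341 to 17832 CPM. Their summed LSK markers were 4678 and 4967 CPM, against 2186 to 3359 CPM. P0 WT library 1 also held 10769 CPM of mast cell or basophil markers, against 944 to 2118 CPM in the other P0 WT libraries. Test results that use P0 libraries are therefore given with and without these 2 libraries. In bulk RNA, a larger share of cells with granule transcripts and more transcript per cell cannot be told apart.

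Mpo makes myeloperoxidase, the heme enzyme that forms hypochlorous acid and the most used marker of primary granules. In P0 WT its level was 679, 3324, 3232 and 2898 CPM in libraries 1 to 4, and in P0 ME it was 449, 7784, 6613 and 6812 CPM. The P28 WT libraries read 466, 432, 352 and 423 CPM. The E10.5-induced P28 libraries read 818, 707, 1065 and 1226 CPM, those induced at P0 714, 647, 438 and 506 CPM, and the RLT Vav Txp libraries 1804, 906, 564 and 2423 CPM. Apart from libraries 1, every P0 library was above every P28 library. The 4 P28 WT libraries formed the narrowest group and the lowest on average.

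Elane makes neutrophil elastase, the serine protease whose gene lies next to Prtn3. Its level in P0 WT was 1.65, 1388, 1134 and 2369 CPM, and in P0 ME 14.0, 4155, 2458 and 3574 CPM. At P28 the WT libraries read 58.6, 61.1, 49.6 and 76.4 CPM, the E10.5-induced libraries 67.9, 84.5, 74.1 and 218 CPM, and those induced at P0 135, 111, 38.4 and 44.6 CPM. In RLT Vav Txp ME it was 425, 566, 393 and 1686 CPM. The lowest RLT Vav Txp library was above all 12 other P28 libraries, and both libraries numbered 1 at P0 were below all of them. Elane also had the widest range of the early set in relative terms, from 1.65 to 4155 CPM.

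Prtn3 makes proteinase 3 and Ctsg makes cathepsin G, the other serine proteases of the primary granule. Prtn3 had the narrowest relative range of the 10 members. Its mean ± SD (n = 4) at P0 was 561 ± 328 CPM for WT and 824 ± 501 CPM for ME. At P28 it was 174 ± 20.4 CPM for WT, 156 ± 42.6 CPM for induction at E10.5, 145 ± 14.2 CPM for induction at P0 and 303 ± 119 CPM for RLT Vav Txp. Ctsg was at 9.78, 254, 244 and 492 CPM in P0 WT and at 6.65, 781, 513 and 669.7 CPM in P0 ME. At P28 it was at 22.3, 46.2, 30.5 and 49.3 CPM in WT and at 144, 244, 159.8 and 561 CPM in RLT Vav Txp ME. The E10.5-induced and P0-induced libraries at P28 overlapped WT for both proteases, and the RLT Vav Txp libraries lay above all WT libraries for both.

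S100a9 makes a subunit of calprotectin, the cytosolic calcium-binding complex. Its level in P0 WT was 12.2, 3098, 1897 and 3697 CPM, and in P0 ME 69.1, 5714, 2333 and 7498 CPM. At P28 the WT libraries read 23.0, 69.5, 23.6 and 33.8 CPM, the E10.5-induced ones 46.9, 13.0, 18.2 and 43.1 CPM, those induced at P0 15.7, 13.3, 10.3 and 2.37 CPM, and the RLT Vav Txp ones 65.5, 90.4, 232 and 516 CPM. The 6 P0 libraries numbered 2 to 4 all stood above the 16 P28 libraries, and libraries 1 fell within the P28 range. S100a8, the gene of its partner subunit, was likewise high in libraries 2 to 4 and low in library 1, with 3353, 1996 and 3728 CPM in P0 WT libraries 2 to 4 and 15.5 CPM in library 1.

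Ngp encodes neutrophilic granule protein, a cystatin-related secondary granule protein. It was at 23.4, 2493, 1236 and 2716 CPM in P0 WT and at 68.7, 4847, 2329.6 and 6236 CPM in P0 ME. At P28 the WT libraries read 18.2, 34.0, 18.4 and 25.0 CPM, the E10.5-induced ones 88.1, 16.5, 34.3 and 29.4 CPM, those induced at P0 12.4, 19.2, 11.9 and 0.401 CPM, and the RLT Vav Txp ones 89.8, 75.9, 130.1 and 269.7 CPM. Library 4 of P0-induced ME was the lowest of all 24 for Ngp, and it was also the lowest for Ltf, Camp, Lcn2, S100a8 and S100a9. Library 1 of E10.5-induced ME was the highest of its group for all 6 late genes.

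Lcn2, Ltf and Camp were also far higher in P0 libraries 2 to 4 than at P28. The WT levels of Lcn2, whose lipocalin binds bacterial siderophores, were 3.42, 425, 212 and 524 CPM at P0 and 1.85, 4.53, 0.998 and 2.55 CPM at P28. Ltf, which encodes the iron-binding lactoferrin, stood in WT at 17.7, 1025, 559 and 427 CPM at P0 and at 2.94, 10.9, 9.04 and 12.2 CPM at P28. Camp, which encodes the cathelicidin precursor, stood in WT at 4.99, 926, 552 and 1310.3 CPM at P0 and at 14.1, 26.4, 18.0 and 14.2 CPM at P28. For Ltf the WT libraries of the 2 ages did not overlap even with library 1, while for Camp library 1 fell below every P28 WT library.

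Ranked by group mean, P0 ME was highest for 10 of 10 members. P0 WT was the next for 9 and RLT Vav Txp ME the third for 9, with Ctsg as the exception (277 ± 194 CPM in RLT Vav Txp ME and 249.8 ± 197 CPM in P0 WT, SD, n = 4). Without library 1, Ctsg was at 329.8 ± 140.2 CPM in P0 WT (n = 3), and P0 WT was then the next and RLT Vav Txp ME the third for 10 of 10. P0-induced ME had the lowest mean for 8 members, and P28 WT for Mpo and Elane. RLT Vav Txp ME was not tested against P0 cells. Compared between genes per kilobase of exon, the leading transcripts in P28 WT were Mpo at 122 ± 14.0, Prtn3 at 100.2 ± 11.8, S100a8 at 74.6 ± 54.2 and S100a9 at 71.8 ± 42.0 CPM per kilobase. In P0 WT without library 1 they were S100a9 at 5550.3 ± 1756, S100a8 at 4359.7 ± 1312, Ngp at 1758 ± 653 and Elane at 1657 ± 663 CPM per kilobase (n = 3). By these WT means the leading gene belonged to the early set at P28 and to the late set at P0, on the same length-corrected scale. Single libraries differed. P28 WT library 2 had S100a8 at 153.8 and Mpo at 126.1 CPM per kilobase. P0 WT library 1, left out of these means, had Mpo at 198.4 and S100a9 at 23.3 CPM per kilobase.

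**Figure D1:**
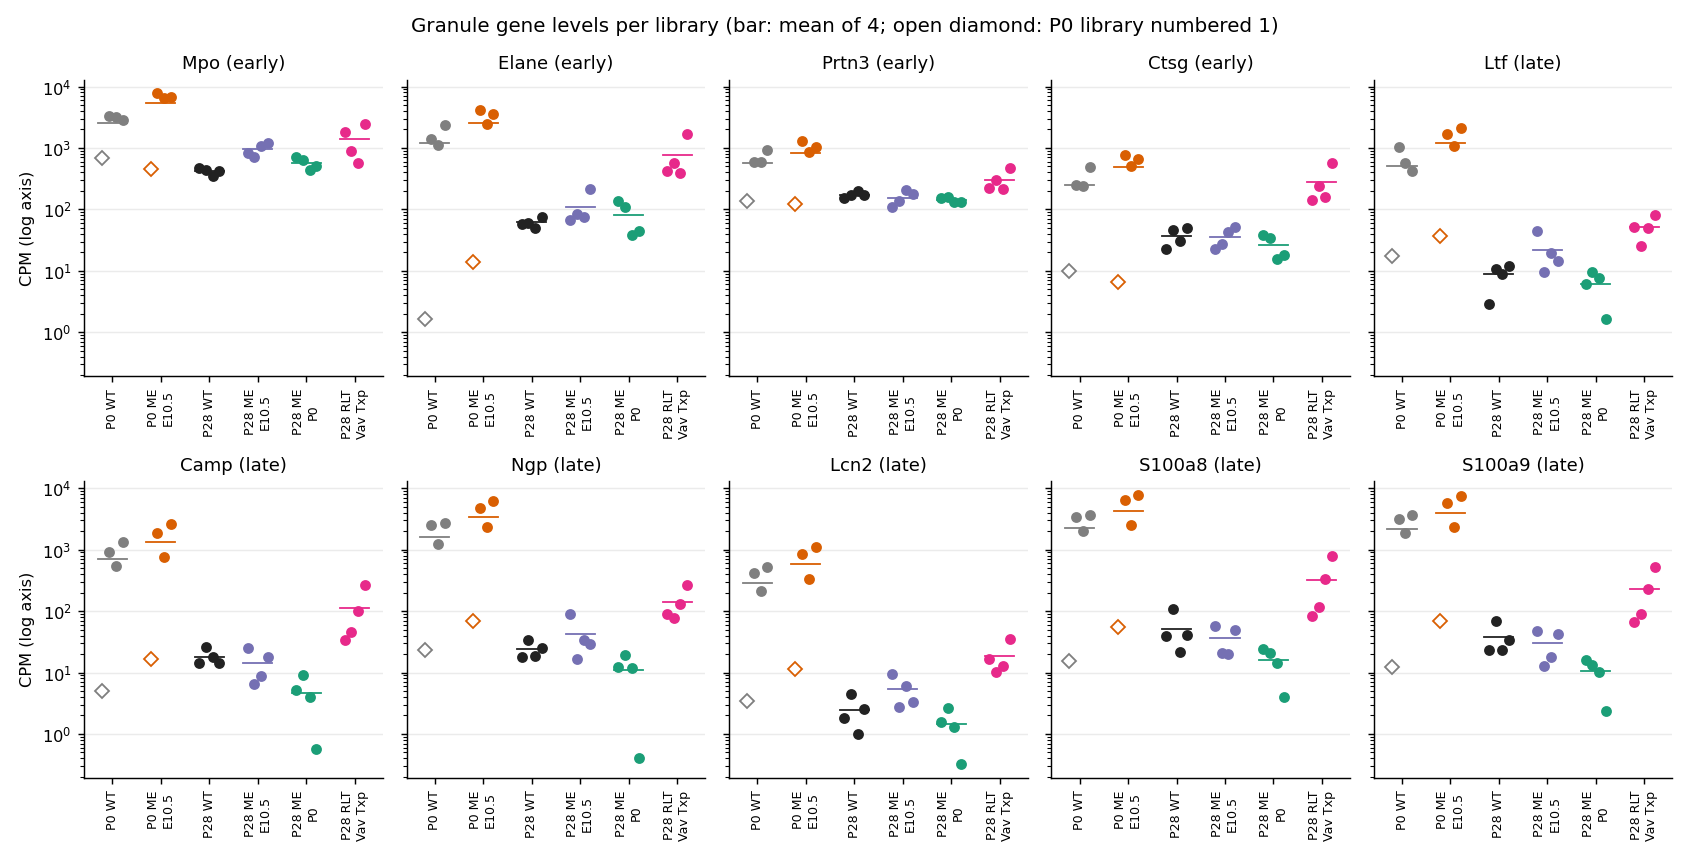
Level of each of the 10 granule genes in every library, in CPM on a log axis, with 1 panel per gene and 6 groups per panel. Points are libraries, bars are means of 4, and open diamonds are the P0 libraries numbered 1, which fall into or below the P28 range, as for Elane at 1.65 and 14.0 CPM.

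The balance of the early and the late set was followed as the mean log2 CPM of the 4 early genes minus that of the 6 late genes. At P0 it was 1.74, -0.70, 0.05 and -0.16 in WT libraries 1 to 4 and 0.43, -0.23, 0.39 and -0.83 in the ME libraries. At P28 the WT libraries read 3.23, 2.19, 3.23 and 3.02, and the E10.5-induced ones 1.56, 3.67, 3.39 and 3.51. Those induced at P0 read 4.30, 3.76, 3.57 and 6.33, and the RLT Vav Txp ones 3.01, 3.26, 1.66 and 2.28. This scale does not correct for gene length. All 6 P0 libraries numbered 2 to 4 were below all 16 P28 libraries, while P0 WT library 1 lay within the P28 range. Summed per kilobase, the late set was 2.12 to 5.10 times the early set in P0 libraries 2 to 4. Per kilobase the late set was below the early set in all P28 libraries but P28 WT library 2, at 1.07 times, and RLT Vav Txp library 3, at 1.40 times.

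As means ± SD, the difference at P0 was 0.23 ± 1.05 for WT and -0.06 ± 0.60 for ME, or -0.27 ± 0.39 and -0.22 ± 0.61 without library 1. At P28 it was 2.92 ± 0.49 for WT, 3.03 ± 0.99 for induction at E10.5, 4.49 ± 1.27 for induction at P0 and 2.55 ± 0.72 for RLT Vav Txp. Each of the 4 P0-induced ME libraries was above each WT library of the same age, with the summed late genes at 64.9, 74.4, 49.3 and 9.25 CPM against 98.7, 252, 91.7 and 128 CPM. The summed early genes of those groups overlapped, at 1043, 949, 623 and 703 CPM against 698, 712, 633 and 719 CPM. The balance is a description of the 10 genes and carries no test.

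**Figure D2:**
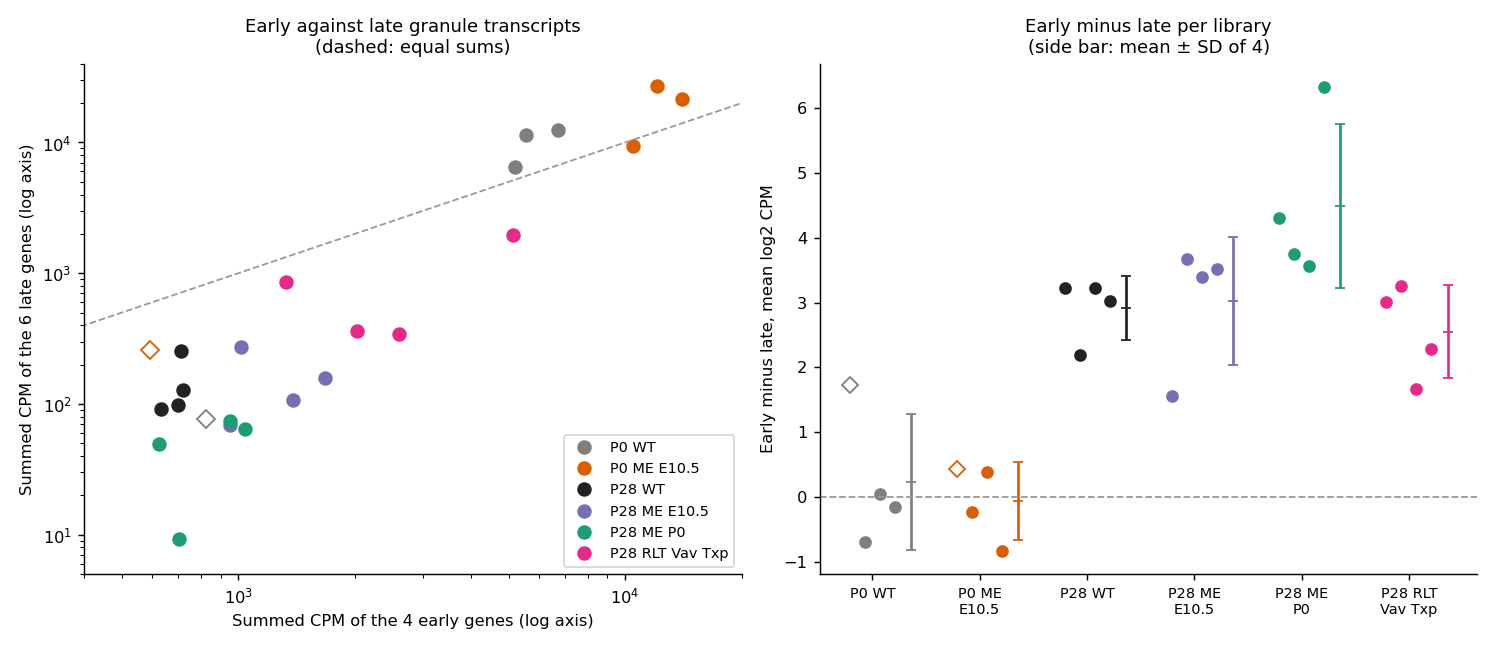
Left, summed CPM of the 4 early genes against that of the 6 late genes in each library, both on log axes, with a dashed line where the sums are equal. Right, early minus late mean log2 CPM per library with mean ± SD of 4. It ran from -0.83 to 1.74 at P0, with P0 WT library 1 the highest, and from 1.56 to 6.33 at P28. Open diamonds are the P0 libraries numbered 1.

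Within the early set, the ratio of Elane to Mpo also differed between groups. Elane stood at 41.7%, 35.1% and 81.7% of the Mpo CPM in P0 WT libraries 2 to 4 and at 0.243% in library 1. In P28 WT the ratio was 12.6%, 14.1%, 14.1% and 18.0%, and in RLT Vav Txp ME it was 23.6%, 62.4%, 69.7% and 69.6%. Ctsg stood at 14.8%, 26.7%, 15.2% and 29.1% of Prtn3 in P28 WT and at 64.4%, 79.9%, 75.5% and 119% in RLT Vav Txp ME. For both ratios the RLT Vav Txp libraries did not overlap P28 WT and were within or above the range of P0 libraries 2 to 4, except that RLT Vav Txp library 1 was below it for Elane over Mpo. These ratios come from genes of unequal length, so only their change between groups can be read.

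P28 marrow cells held far less granule transcript than P0 liver cells, and the late set differed most. In WT, 8 of 10 members were called lower at P28 by edgeR's quasi-likelihood test (Benjamini-Hochberg adjusted p under 0.05 over 23059 genes). Over all genes tested, 4.56% were called lower in this comparison. The late genes fell by log2 values of 5.27 to 6.90 with a median of -5.85, and all 6 were called. The early genes had log2 fold changes of -4.32 to -1.69 with a median of -2.68, and 2 of 4 were called. The median over all genes was -0.07. Every late gene had a larger decrease than every early gene.

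Among the late genes, Lcn2 fell by 6.90 on the log2 scale (SE 1.35, adjusted p = 0.00375) and Ltf fell by 5.85 (SE 1.15, adjusted p = 0.00392). Mpo fell by 2.60 (SE 0.62, adjusted p = 0.0135). Prtn3 fell by 1.69 (SE 0.51, adjusted p = 0.0481), a call that was lost in 13 of 16 other settings. Elane, at a log2 fold change of -4.32 (SE 1.35), had an adjusted p of 0.0577 and Ctsg, at -2.75 (SE 0.98), one of 0.098. Only Mpo and Ltf had WT groups that did not overlap, where 4.38% of all genes tested were lower without overlap. Without both P0 libraries numbered 1, 10 of 10 members were called lower (background 6.55%), the medians were -3.03 for the early and -6.26 for the late set, and for 10 of 10 the groups did not overlap (background 8.5%). Library 1 was the lowest P0 WT library for 10 of 10 members and was left out after the data were seen. Leaving it out thus favours more calls and less overlap, and these counts add no separate support. The count was 4 without P28 WT library 1 (4.72% of all genes called), 5 without library 3 (4.8%) or library 4 (5.01%) of that group, and 4 when only the 8 libraries compared were fitted (2.5%).

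In ME cells induced at E10.5, every late gene again had a larger decrease than every early gene between P0 and P28. Here 10 of 10 members were called lower, against 8.45% of all genes tested. S100a9 fell by 7.01 on the log2 scale (SE 1.46, adjusted p = 0.00296) and S100a8 fell by 6.83 (SE 1.47, adjusted p = 0.00371). Lcn2 fell by 6.76, Camp fell by 6.50, Ngp fell by 6.32 and Ltf fell by 5.78, each with an adjusted p under that of every early gene except Prtn3. Elane fell by 4.52 (SE 1.36, adjusted p = 0.0274), Ctsg fell by 3.77, Mpo fell by 2.50 and Prtn3 fell by 2.40. The medians were -3.14 for the early and -6.63 for the late set, against -0.18 for all genes. Without both libraries numbered 1 the medians were -3.53 and -7.04, and 10 of 10 were called (background 10.2%). The groups did not overlap for 2 of 10 members with all libraries, Lcn2 and S100a9 (background 11.0%), and for 10 of 10 without those libraries (background 16.8%). Library 1 was also the lowest P0 ME library for 10 of 10 members, so leaving it out favours that result.

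**Figure D3:**
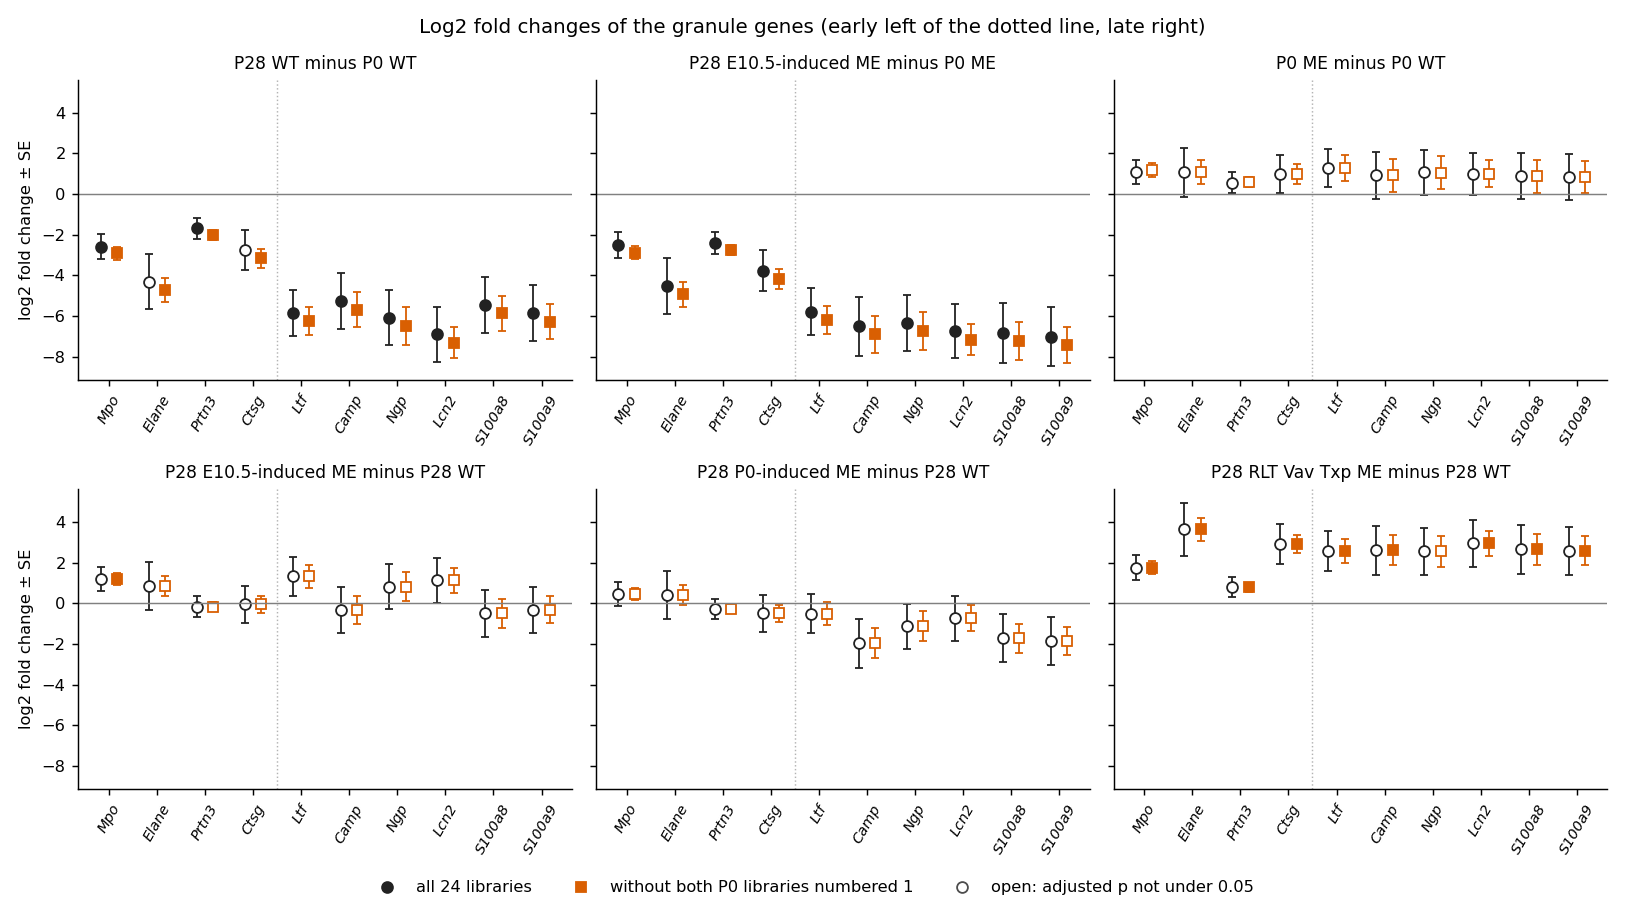
Log2 fold change ± SE of each granule gene in 6 comparisons, from the fit of all 24 libraries (circles) and from the fit without both P0 libraries numbered 1 (squares). Filled symbols have an adjusted p under 0.05. With all 24 libraries the late genes lie between -5.27 and -7.01 in both comparisons of P28 with P0, below all early genes, and the 10 genes lie above 0 for RLT Vav Txp ME against WT.

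At P0, no member was called between ME and WT, although the fitted level was higher in ME for all 10. The log2 fold changes ran from 0.56 for Prtn3 to 1.26 for Ltf, with medians of 1.02 for the early and 0.95 for the late set. Adjusted p-values in edgeR ran from 0.425 to 0.792, 0 of 10 had an unadjusted p under 0.05, and DESeq2 also called 0. Over all genes tested 0.642% were called. Without both libraries numbered 1, still 0 were called, 2 had an unadjusted p under 0.05, and Mpo had a log2 fold change of 1.17 (SE 0.34, adjusted p = 0.0897). In that fit, 4 of 10 members (Mpo, Elane, Ctsg and Ltf) were higher in ME without overlap, against 6.36% of all genes tested. With all 8 libraries, the groups overlapped for 10 of 10 members, where 3.74% of all genes tested did not overlap.

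At P28, ME induced at E10.5 was higher than WT without overlap for 1 of 10 members, Mpo, which was not called. The 4 ME libraries at 707 to 1226 CPM lay above the 4 WT libraries at 352 to 466 CPM. The log2 fold change of Mpo was 1.19 (SE 0.59, adjusted p = 0.207). That gene was called in the fit without both P0 libraries numbered 1 (SE 0.29, adjusted p = 0.0095, background 13.9%) and in the fit of only the 8 libraries compared, where 34.0% of all genes were called. For 16.6% of all genes tested, the ME libraries were higher without overlap, a larger share than the 1 of 10 members. The 3 other early genes had log2 fold changes between -0.15 and 0.86. In the late set Ltf was at 1.33 (SE 0.96, adjusted p = 0.405) and Lcn2 at 1.14 (SE 1.10, adjusted p = 0.551), and library 1 was the highest ME library for both. In all, edgeR called 0 of 10 members against a background of 12.3%, 0 had an unadjusted p under 0.05, and DESeq2 called 0.

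ME induced at P0 had lower late transcripts than WT on average, with none called. The late median was -1.42, with a range of -1.95 to -0.50, and the early median was 0.08. Camp, at 5.17, 9.01, 3.97 and 0.562 CPM against 14.1, 26.4, 18.0 and 14.2 CPM in WT, had a log2 fold change of -1.95 (SE 1.20, adjusted p = 0.386). S100a9 had one of -1.84 (SE 1.17, adjusted p = 0.402) and S100a8 one of -1.72 (SE 1.18, adjusted p = 0.445). For Camp and S100a9 the groups did not overlap, as for 10.4% of all genes tested. EdgeR called 0 of 10 members (background 1.57%), 0 had an unadjusted p under 0.05, and DESeq2 called 0. In the edgeR fit without both P0 libraries numbered 1, 3 members, all late, had an unadjusted p under 0.05. Those libraries belong to neither group, and 0 members were called in that fit (smallest adjusted p = 0.134, background 4.06%). Fitted on the 8 libraries of these groups alone, 4 members were called, with Camp, S100a9 and Prtn3 lower and Mpo higher, against 27.9% of all genes called in that fit.

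Between the 2 times of induction, the late genes were lower after induction at P0, with a median of -1.73 against -0.45 for the early set. Lcn2, at 1.57, 2.62, 1.30 and 0.321 CPM against 9.40, 2.73, 5.98 and 3.34 CPM, had a log2 fold change of -1.87 (SE 1.12), and its groups did not overlap, as for 7.18% of all genes tested. Ngp had a log2 fold change of -1.94 (SE 1.14), Ltf one of -1.83 (SE 0.97) and Mpo one of -0.73 (SE 0.59). Adjusted p-values were 1 for all 10 members, 0 had an unadjusted p under 0.05, and DESeq2 called 0. The background was 0.0477% of all genes called. In the edgeR fit without both P0 libraries numbered 1, 6 of 10 members had an unadjusted p under 0.05, 5 of them late. Those libraries belong to neither group, and 0 members were called in that fit (smallest adjusted p = 0.621, background 0.109%). The difference of the ME effect at P28 from that at P0 was also called for 0 of 10 members by edgeR and by DESeq2. In edgeR its adjusted p-values ran from 0.667 to 0.994, against 0.72% of all genes called, and 0 had an unadjusted p under 0.05. Without both P0 libraries numbered 1, edgeR still called 0 (background 0.973%). Adjusted p-values then ran from 0.242 to 0.999, and 1 member had an unadjusted p under 0.05.

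RLT Vav Txp ME had higher mean levels than P28 WT for all 10 members. Elane was at 767 ± 617 CPM against 61.4 ± 11.1 CPM in WT (SD, n = 4), a log2 fold change of 3.64 (SE 1.31, adjusted p = 0.15), which did not pass the threshold. Ctsg had a log2 fold change of 2.90 (SE 0.98, adjusted p = 0.123), Mpo one of 1.77 (SE 0.60, adjusted p = 0.123) and Prtn3 one of 0.80 (SE 0.50, adjusted p = 0.515). The late genes had log2 fold changes between 2.56 for Ngp and 2.95 for Lcn2. Without RLT Vav Txp library 4, those of Camp and S100a8 were 1.71 and 1.76, and that of Elane was 2.89. For 8 of 10 members the groups did not overlap, against 7.02% of all genes tested, and the exceptions were S100a8 and S100a9, for which P28 WT library 2 lay above the lowest RLT Vav Txp library. The median was 2.34 for the early and 2.60 for the late set, against 0.01 for all genes. This comparison and those of the other P28 ME groups share the same 4 WT libraries.

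The number of calls moved with the libraries fitted. In the fit of all 24 libraries 0 of 10 members were called (background 4.12%), although 9 had an unadjusted p under 0.05. Without both P0 libraries numbered 1, which belong to neither group compared, 9 of 10 were called higher (background 3.54%), all but Ngp at an adjusted p of 0.0605. In that fit the fold change of Elane was again 3.64 with an SE of 0.56 (adjusted p = 0.000447) and that of Ctsg was 2.90 with an SE of 0.44 (adjusted p = 0.000276). DESeq2 called 5 members (7.28% of all genes), and edgeR on the 8 libraries compared called 7 (6.22% of all genes).

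Against ME induced at E10.5 without that label, RLT Vav Txp ME was higher in 7 of 10 members without overlap (11.6% of all genes tested). Ctsg, at 144 to 561 CPM against 22.9 to 52.3 CPM, was the 1 member called, with a log2 fold change of 2.94 (SE 0.98, adjusted p = 0.0459), where 8.5% of all genes tested were called higher. Leaving out single libraries of the groups compared ended that call in 7 of 8 cases, as did testing without a filter on low counts (7.02% of all genes called). S100a8 had a log2 fold change of 3.15 (SE 1.24, adjusted p = 0.0875) and Elane one of 2.79 (SE 1.26, adjusted p = 0.137). Mpo, whose E10.5-induced libraries were also all above WT, had one of 0.58 (SE 0.59, adjusted p = 0.554). Without both P0 libraries numbered 1, 7 members were called higher (background 9.43%), and Mpo, Ltf and Ngp were not.

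Other genes of the granule program were read from lists that also hold genes used by monocytes and macrophages. Of 10 further primary granule genes, 1 was lower at P28 in WT and 4 in ME, among them Ms4a3, a gene of granulocyte and monocyte progenitors, which fell by 3.96 on the log2 scale in ME (SE 1.17, adjusted p = 0.0257). Of 19 further late genes, 8 were lower and 1 higher at P28 in WT, and 13 were lower and 1 higher in ME. Fcnb, the gene of ficolin B, fell by 7.05 in WT (SE 1.52, adjusted p = 0.00731) and fell by 6.95 in ME. Chil3, a chitinase-like secretory protein, fell by 5.60 in WT (SE 1.31, adjusted p = 0.0124). Over all genes, 4.56% were called lower and 3.12% higher in WT, and 8.45% lower and 9.79% higher in ME. In the fit without both P0 libraries numbered 1, 4 further primary granule genes were lower in WT and 8 in ME, and 14 further late genes were lower in WT and 15 in ME, with 1 higher in each (backgrounds of 6.55% and 10.2% lower).

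Of 12 regulators of granulocyte genes, 4 were lower and 1 higher at P28 in WT, and likewise 4 and 1 in ME. These counts were 5 and 2 in each without both P0 libraries numbered 1. Cebpe, which encodes C/EBPε, fell by 3.94 in WT (SE 0.98, adjusted p = 0.017), from 34.5 to 50.2 CPM in P0 WT libraries 2 to 4, with 0.905 CPM in library 1, to 0.951 to 3.97 CPM at P28. Cebpd fell by 1.65 and Cebpb fell by 1.26 in WT. Irf8, a factor of the monocyte branch, also fell in WT, by 1.35 (SE 0.29, adjusted p = 0.00392). In RLT Vav Txp ME against P28 WT, Irf8 rose by 1.94 (SE 0.29, adjusted p = 0.000158). In the same comparison Gfi1, a repressor needed for neutrophil maturation, fell by 1.47 (SE 0.20, adjusted p = 6.43e-05). Clec12a, an inhibitory receptor of myeloid cells, rose by 3.27 (SE 0.85, adjusted p = 0.033), and Cybb, the oxidase subunit of neutrophils and macrophages, rose by 5.24 (SE 0.92, adjusted p = 0.00189). In that comparison 2 of 10 further primary granule genes, 3 of 19 further late genes and 1 of 12 regulators were higher, and 1 regulator was lower, against 2.64% and 1.48% of all genes. The counts higher were 4, 5 and 3 without both P0 libraries numbered 1, against 3.54% of all genes. The 3 regulators higher in that fit were Cebpe, Irf8 and Csf2ra. Cebpe, not called with all 24 libraries, rose by 2.55 (SE 0.41, adjusted p = 0.000245), Irf8 by 1.94 and Csf2ra by 0.75. Gfi1 again fell by 1.47.

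At P0, Itgam, the integrin CD11b, was 1 of 19 late genes called higher in ME, with a log2 fold change of 1.48 (SE 0.31, adjusted p = 0.0247), where 0.642% of all genes were called. Without both libraries numbered 1, 0 of 19 were called and Itgam had a log2 fold change of 1.31 (SE 0.34, adjusted p = 0.0652). At P28 in E10.5-induced ME, Mmp9, the gelatinase, had a log2 fold change of 5.59 (SE 1.62, adjusted p = 0.0302), which came with 1 library at 198 CPM while the lowest of the group was at 0.771 CPM. Padi4, a histone-citrullinating enzyme of neutrophils, rose by 0.87 (SE 0.23, adjusted p = 0.0166) and Irf8 rose by 0.87 (SE 0.28, adjusted p = 0.0435). These were 2 of 19 late genes and 1 of 12 regulators, against 12.3% of all genes called in that comparison. In P0-induced ME against WT, 0 genes of these 3 lists were called.

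Markers of several other cell types were also higher in RLT Vav Txp ME than in P28 WT. The summed macrophage markers were 61.3 to 96.9 CPM in P28 WT, 43.3 to 65.7 CPM in E10.5-induced ME, 41.2 to 50.3 CPM in P0-induced ME and 613 to 2699 CPM in RLT Vav Txp ME. Of the 10 macrophage genes, 9 were called higher in RLT Vav Txp ME than in WT (10 without both P0 libraries numbered 1), against 2.64% of all genes (3.54%). Vsig4 was at 0 in all 12 other P28 libraries, and Marco at 0 in all P0-induced ME libraries. The erythroid markers were 474 to 641 CPM in P28 WT and 1121 to 2409 CPM in RLT Vav Txp ME, and the eosinophil markers 86.0 to 196 and 434 to 1710 CPM. The LSK markers ran the other way, at 4257 to 4855 CPM in P28 WT and 2003 to 3005 CPM in RLT Vav Txp ME. Mature neutrophil markers were low in both groups but also higher in RLT Vav Txp ME, without overlap. They summed to 10.8 to 15.0 CPM in P28 WT and 20.5 to 61.6 CPM in RLT Vav Txp ME, with Stfa2 at 0 in both. Within RLT Vav Txp ME the order of libraries differed. Macrophage markers were highest in library 1, at 2699 CPM, where the late genes had their lowest sum of 341 CPM. In library 4 they were at 1574 CPM and the late genes at 1945 CPM. The part of these cell types in the granule levels was not tested.

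Between P28 and P0, markers of several of these cell types were also lower at P28. In WT, 9 of 10 macrophage, 7 of 8 erythroid, 6 of 10 mast cell or basophil, 5 of 8 hepatocyte, 4 of 8 monocyte, 2 of 6 mature neutrophil and 0 of 6 eosinophil markers were called lower at P28, and 2 of 8 LSK markers were called higher, against 4.56% of all genes lower and 3.12% higher. With both P0 libraries numbered 1 left out, 10 macrophage, 8 erythroid, 6 mast cell or basophil, 6 hepatocyte, 4 monocyte, 4 mature neutrophil and 3 eosinophil markers were lower, and 4 LSK markers and 1 monocyte marker were higher, against 6.55% of all genes lower. Within P0, granule means were higher in ME than in WT. Erythroid markers in libraries 2 to 4 were at 5341 to 14028 CPM in ME and 13603 to 17832 CPM in WT. P0 WT library 1 had 10769 CPM of mast cell or basophil markers and 77.2 CPM of the late genes. The mature neutrophil markers summed to 55.6 to 256 CPM in P0 WT libraries 2 to 4, against 6451 to 12401 CPM for the 6 late granule genes in the same libraries. Their part in the fall of the granule genes was not tested.

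**Figure D4:**
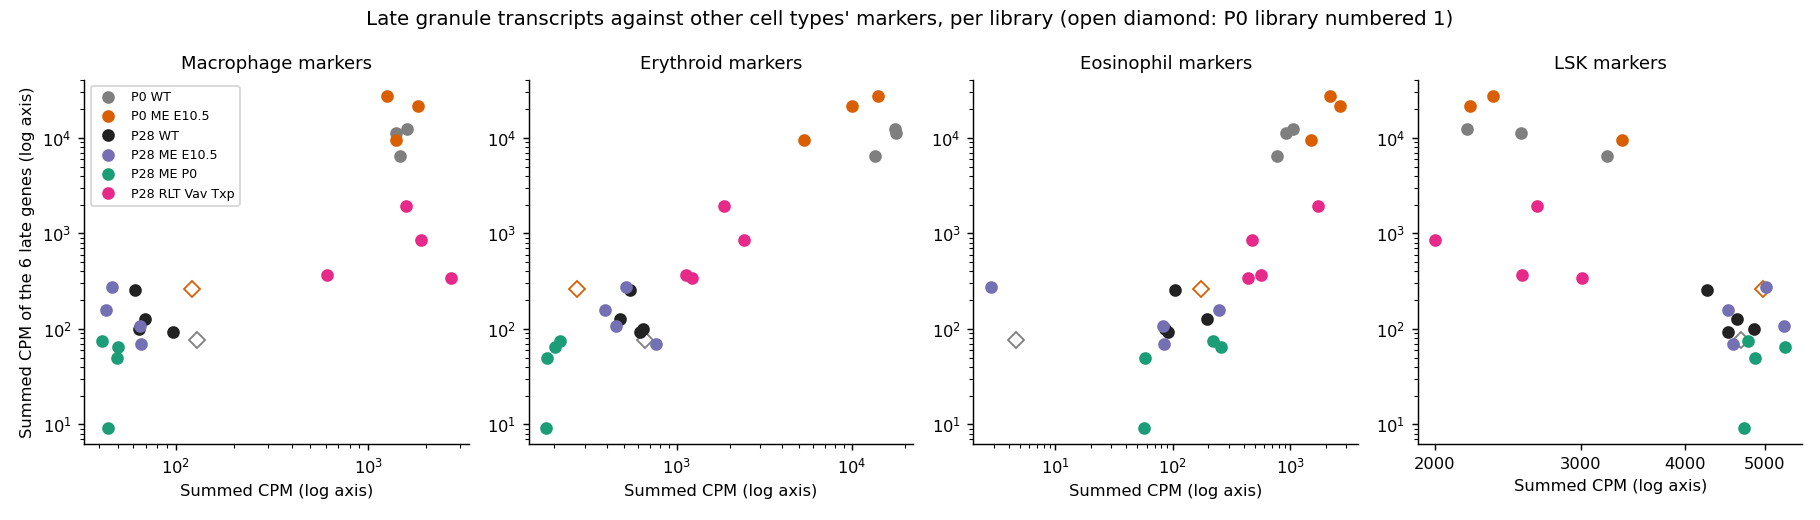
Summed CPM of the 6 late granule genes against the summed CPM of macrophage, erythroid, eosinophil and LSK marker lists in each library, all on log axes. The P0 libraries numbered 2 to 4 and the RLT Vav Txp libraries lie high for the first 3 lists and low for LSK markers, and the P0 libraries numbered 1 (open diamonds) lie near the other P28 libraries.

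Over the 24 libraries, late genes followed each other more closely than early genes did. Pearson's r of log2 CPM had a median of 0.975 over the 15 pairs of late genes, 0.897 over the 6 pairs of early genes and 0.869 over the 24 pairs between the sets. Over the 16 P28 libraries the medians were 0.908, 0.810 and 0.721. The libraries fall into clusters by age, and pairs share genes and libraries, so these values are descriptions. Outside the members, the transcript most like the early set was Ly6c2, which encodes a surface protein of monocytes and their progenitors (r = 0.978 over 24 libraries and 0.944 over the P28 libraries), followed by Hp, Gca and Ms4a3. The transcript most like the late set was Chil3 (r = 0.989 and 0.946), followed by Hp, Dstn and the globin gene Hbb-bs. In all, 9678 genes were ranked.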

How the data were processed

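RNA of 24 LSK samples was sequenced, 4 libraries in each of 6 groups taken from the labels. The authors deposited raw read counts per Ensembl gene as 1 table, and the submitters' processing notes name STAR 2.7.9a, Subread featureCounts 2.0.3 and GRCm38. The strand setting, the handling of multi-mapping reads and the annotation release are not given in the sources used here. The table had 55774 rows for 55487 gene IDs, and 287 repeat rows were dropped. Replicate numbers came from the labels, except for RLT Vav Txp ME, whose libraries were numbered in accession order.

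Counts were filtered with filterByExpr (minimum count 10, leaving 23059 genes), scaled by TMM and fitted with edgeR 4.0.16 (robust quasi-likelihood, 1 mean per group, 18 residual degrees of freedom) in R 4.3.3. A gene was called where its p, adjusted by Benjamini-Hochberg over all genes tested, was under 0.05. All 10 members passed the filter. CPM are TMM-scaled, log2 CPM used a prior count of 2, and the fit was tested on simulated data. In the smallest library, 1 CPM stands for 31.2 counts before scaling. The p-values weigh a difference against the spread between libraries within groups. In the main fit that spread was estimated over all 24 libraries, so groups outside a comparison also enter it. The 10 members and the other lists were chosen with earlier results of these data known. Named genes were the members, up to 4 called genes of each related list and comparison with the largest fold change (mean log2 CPM at least 0), Kit, Ly6a, Ly6g and Itgam, and the 5 non-member genes (mean log2 CPM at least 3) most correlated with each set, of which 1 per set is not reported here. Genes named beside marker lists were those at 0 in every library of a group. Alternatives were RLE factors, DESeq2 1.42.0, no filter, only the groups compared, a replicate block, a prior count of 0.5 for the early minus late difference, each library left out and, chosen after seeing the data, plain library totals and leaving out both P0 libraries numbered 1. Promoters are from RefSeq (GRCm38.p6), found for 10 of 10 members.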

Additional observations from a re-analysis of the deposited data

Results flagged for a closer look

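In groups of 4, the lowest or highest library was set apart by Dixon's 95% critical value for its gap over the range of the group. This held in 13 of 66 groups tested on the log2 scale. Chance flags about 1 in 20 single tests. The genes are correlated and share libraries, so the flags are not independent and their number cannot be weighed against that rate. Most flags fell on the P0 libraries numbered 1, which were far below the other 3 libraries of their group. In P0 WT these were Mpo at 679 CPM, Elane at 1.65, Camp at 4.99, Ngp at 23.4, S100a8 at 15.5 and S100a9 at 12.2 CPM. In P0 ME they were Mpo at 449 CPM, Elane at 14.0, Prtn3 at 121, Ctsg at 6.65 and Ltf at 37.4 CPM. In P0 WT library 1, Elane was 841 times lower than the median of the other P0 WT libraries, and Mpo 4.76 times lower. In P0-induced ME at P28, Ngp in library 4 was at 0.401 CPM, below the other 3 libraries at 11.9 to 19.2 CPM. In E10.5-induced ME at P28, the early minus late difference of library 1 was 1.56, below 3.39 to 3.67 in the other 3.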

How the results depend on the processing

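The count of granule genes called moved with the fit more than their fold changes did. When only the groups compared were fitted, 1 member was called for E10.5-induced ME against WT at P28 (34.0% of all genes), 4 for P0-induced ME against WT (27.9%), 7 for RLT Vav Txp ME against WT (6.22%), 7 for RLT Vav Txp ME against E10.5-induced ME (31.6%) and 4 for P28 WT against P0 WT (2.5%). Without both P0 libraries numbered 1, the counts for RLT Vav Txp ME were 9 against WT and 7 against E10.5-induced ME, and 1 for E10.5-induced ME against WT. DESeq2 called 5 members in each RLT Vav Txp comparison (7.28% of all genes against WT and 23.1% against E10.5-induced ME), and with no filter on low counts 0 were called for RLT Vav Txp ME against E10.5-induced ME. Leaving out 1 library at a time gave 0 to 1 called for that comparison (8.51% to 21.5% of all genes) and 4 to 10 for P28 WT against P0 WT (4.72% to 10.2%), with 10 reached without P0 WT library 1. The cause was not tested. Of 952 single-gene values recomputed, 860 kept their direction and side of the threshold, 44 lost and 48 gained a call, and 0 reversed. With 1 library left out, the early minus late difference moved from 0.23 to between -0.27 and 0.54 in P0 WT. In P0-induced ME it moved from 4.49 to between 3.88 and 4.80. Leaving 1 library out of 4 cannot move a mean by a full SD, so these shifts are no test of the difference. RLE factors and the prior count of 0.5 gave 0.23 in P0 WT and 4.49 to 4.51 in P0-induced ME.

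With the replicate number as a block, the 20 numbered libraries gave 6 calls for P28 WT against P0 WT (7 without the block) and 9 for E10.5-induced ME between the ages (10 without), and 0 in the other comparisons. The deviations of same-numbered libraries had r from -0.39 to 0.66, over 0.1 in 14 of 40 pairs and in every pair for 0 of 10 pairs of groups, and a library correlated best with its own number in 12 of 40 cases. For P0 WT and P0 ME, r was 0.66, 0.05, 0.37 and 0.46 for numbers 1 to 4. Late genes at P28 rest on few counts in some libraries, which limits their precision.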
